A study of Mus musculus with 10 samples.

Results

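The transcription factor Klf2 and 7 receptors that guide lymphocyte movement were examined in pro-B cells of Pax5 mutant mice: the sphingosine-1-phosphate receptors S1pr1, S1pr3 and S1pr4 and the chemokine receptors Ccr7, Ccr9, Cxcr4 and Cxcr5. These 8 genes were taken by name out of 25579 genes in the RNA-seq table, together with the Pax5 ChIP-seq peaks in and near them, and all 8 were among the 13436 genes tested. RNA-seq was available for pro-B cells sorted ex vivo from the bone marrow of C57BL/6 mice of 4 genotypes, with 2 libraries each. Pax5+/+ cells carry both wild-type alleles, Pax5+/- cells a wild-type and a null allele, and Pax5R31Q/- cells a null allele and an allele for the Pax5-R31Q protein, which was made by CRISPR/Cas9 genome editing. For Pax5-/- cells the source was the cross Vav-Cre Pax5 fl/fl, in which Cre is active throughout the hematopoietic system; the labels call these cells progenitors and the others pro-B cells. Pax5 ChIP-seq was available for short-term cultured pro-B cells, with 1 library of Rag2-/- cells with wild-type Pax5 (Pax5+/+ below) and 1 of Pax5R31Q/- cells. The labels do not say whether libraries of a genotype came from separate mice, so p-values measure the spread between these libraries, and the smallest two-sided p that an exact permutation of 2 against 2 libraries allows is 0.333. Ages are not given in the labels.

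Klf2 is a zinc finger transcription factor of quiescent lymphocytes and endothelial cells, and in T cells it directly activates S1pr1. Sphingosine-1-phosphate is abundant in blood and lymph, and S1pr1 draws lymphocytes out of bone marrow, thymus and lymph nodes along this gradient. Cxcr4 does the opposite in bone marrow, where its ligand Cxcl12 on stromal cells retains B cell precursors. Ccr7 and Cxcr5 lead mature lymphocytes to the T cell zone and the B cell follicle, and Ccr9 leads cells to the thymus and small intestine. Pax5 activates and represses genes to commit progenitors to the B cell lineage.

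Read numbers recovered from the deposited values placed the depth between 21625467 reads, in the first Pax5-/- library, and 34488562 reads per library. Pax5 itself was at 418 and 444 TPM (a read number scaled by gene length and library total) in Pax5+/+, 272 and 287 TPM in Pax5+/-, 306 and 293 TPM in Pax5R31Q/- and 1242 and 1409 TPM in Pax5-/- libraries, and a value over all exons does not check the deletion. The 13 pro-B markers, none of them under 1 TPM in both libraries of a genotype, summed to between 17613 and 23794 TPM in the first 3 genotypes and to 9708 and 8917 TPM in Pax5-/-. Granulocyte and macrophage markers, 12 genes, summed to 3525 TPM in the first Pax5-/- library and 474 TPM in the second, and to between 696 and 2279 TPM elsewhere. Of 12 T and NK cell markers 8 were tested. In Pax5-/- against Pax5+/+ cells 3 were higher (Nkg7, Gzma and Thy1) and 1 lower (Klrb1c), where 16.2% and 19.7% of all genes were called. The summed level of the 12 markers ranged from 54.5 to 56.8 TPM in Pax5+/+, 56.6 to 64.5 TPM in Pax5+/-, 52.0 to 56.1 TPM in Pax5R31Q/- and 81.5 to 116 TPM in Pax5-/-. Nkg7, a gene of cytotoxic granules, was at 6.45 and 6.34 TPM in Pax5+/+ and 56.2 and 24.7 TPM in Pax5-/- (log2 2.37, limma adjusted p = 0.00146). The defining T cell markers Cd3d, Cd3e and Cd3g were under 1 TPM in all libraries. The part of such cells in the Pax5-/- results was not tested. Across all genes tested, the median log2 difference was -0.11 between Pax5-/- and Pax5+/+ and 0.04 between Pax5R31Q/- and Pax5+/+, so small changes in Pax5-/- cells are read relative to that shift.

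Pax5 peaks at the start sites differed between members in the genotype in which they were called. The sequences below come from the mouse assembly GRCm38.p6 (mm10) and are the parts of the called peaks that lie upstream of the outermost annotated exon, up to 250 bases, for Klf2 (peak in both genotypes), S1pr1 (peak in Pax5+/+ only) and S1pr3 (peak in Pax5R31Q/- only). They are written 5′ to 3′ on the strand of the gene, and the capitals mark GGGCGG on either strand, the GC box bound by the Sp and Klf families. The fourth is part of a peak upstream of Cxcr4, written on the minus strand, with GCGTGAC, a core of the Pax5 paired domain motif, in capitals.
Klf2 (chr8:72318783-72319032, plus strand): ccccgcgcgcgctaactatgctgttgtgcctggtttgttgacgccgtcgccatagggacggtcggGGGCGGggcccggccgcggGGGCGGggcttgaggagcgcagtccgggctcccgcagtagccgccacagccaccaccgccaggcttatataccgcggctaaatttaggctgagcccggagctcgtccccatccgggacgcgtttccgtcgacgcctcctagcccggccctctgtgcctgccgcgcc
S1pr1 (chr3:115715073-115715136, minus strand): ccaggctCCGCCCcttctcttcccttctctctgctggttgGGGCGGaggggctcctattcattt
S1pr3 (chr13:51408535-51408617, plus strand): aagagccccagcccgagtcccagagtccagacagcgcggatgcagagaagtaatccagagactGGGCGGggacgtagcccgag
Cxcr4 upstream (chr1:128601477-128601603, minus strand): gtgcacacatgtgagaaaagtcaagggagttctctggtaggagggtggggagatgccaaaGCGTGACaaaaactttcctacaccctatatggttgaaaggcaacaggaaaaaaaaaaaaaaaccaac
The GC box matched at 2 places in the Klf2 sequence, at 2 in that of S1pr1 and at 1 in that of S1pr3. Among 32851 RefSeq promoter sequences of mouse, 32.7%, 19.4% and 22.5% held it in a stretch of the same length before the start. The Cxcr4 promoter window held 3 matches, and those of Ccr7 and Cxcr5 held 0. The Pax5 core itself was absent from every start site window, and the peak shown for Cxcr4 was the only one of 15 Pax5+/+ peaks around the members with a match near its midpoint. GCGTGAC occurred on either strand within 300 bases around the midpoint in 7.3% of all common Pax5+/+ peaks and in 1.7% of those found in Pax5+/+ alone.

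Klf2 RNA was reduced in both mutants that lack wild-type Pax5. The gene lies on chromosome 8 (72319062 to 72321654, plus strand). It had 69.8 and 61.9 TPM in Pax5+/+, 39.9 and 28.1 TPM in Pax5+/-, 22.1 and 13.3 TPM in Pax5R31Q/- and 15.5 and 25.2 TPM in Pax5-/- libraries. The Pax5+/- libraries lay below both Pax5+/+ and above all other libraries, while Pax5R31Q/- and Pax5-/- libraries overlapped. Klf2 fell to 26.9% of the Pax5+/+ mean in Pax5R31Q/- cells, a difference of -1.87 in log2(TPM + 1) (SE 0.30, limma adjusted p = 0.0164), and to 30.95% in Pax5-/- cells (log2 -1.68, SE 0.30, limma adjusted p = 0.00434). At 51.6% of the Pax5+/+ mean, the Pax5+/- level did not pass the test (log2 -0.95, 95% confidence interval -1.65 to -0.25, limma adjusted p = 0.568), nor did Pax5R31Q/- against Pax5+/- (log2 -0.92, limma adjusted p = 0.357) or against Pax5-/- (log2 -0.19, interval -0.90 to 0.51). The call in Pax5R31Q/- was lost when any of the 4 libraries compared was left out, with limma adjusted p between 0.0615 and 0.146 and log2 values between -2.22 and -1.53, and when only both genotypes entered the fit (limma adjusted p = 0.0601).

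**Figure D1:**
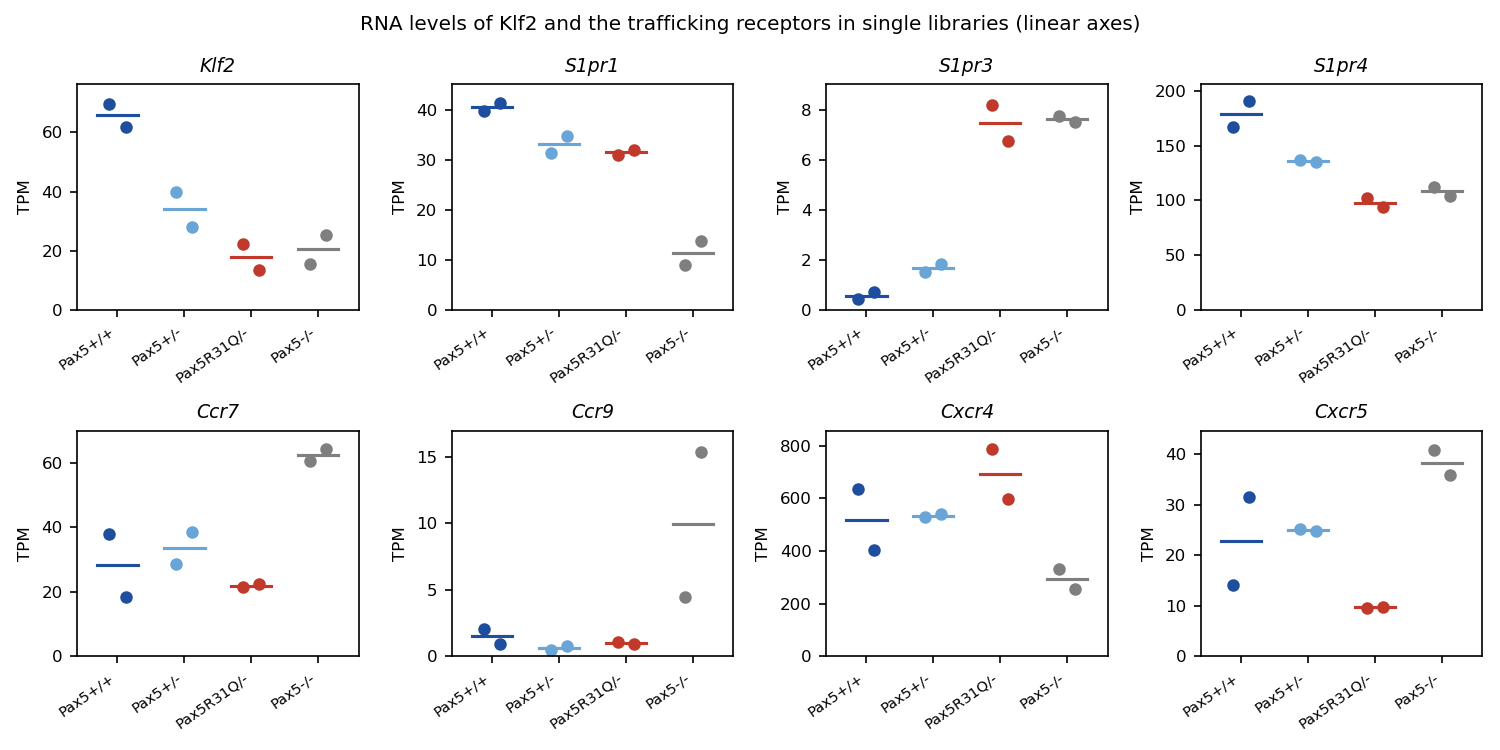
RNA levels (y axes, TPM, linear from 0) of the 8 genes in the 4 genotypes (x axes). Each point is 1 library and each bar the mean of 2 libraries; Klf2 and S1pr4 lie highest in Pax5+/+, S1pr3 lies highest in Pax5R31Q/- and Pax5-/-, and Ccr7, Ccr9 and Cxcr5 lie highest in Pax5-/-.

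The Pax5 peak at the Klf2 start was called in both genotypes. It spanned 577 bp in Pax5+/+ (72318611 to 72319187) and 624 bp in Pax5R31Q/- cells (72318611 to 72319234), and its midpoint lay 163 bp and 140 bp upstream of the start. No other peak of either list lay in the gene or within 10 kb. The files give no measure of peak height.

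The sphingosine-1-phosphate receptors followed 3 separate courses. S1pr1, on chromosome 3 (115710433 to 115715055, minus strand), is the egress receptor that T cells express under Klf2. It had 39.8 and 41.3 TPM in Pax5+/+, 31.4 and 34.9 TPM in Pax5+/-, 31.02 and 32.1 TPM in Pax5R31Q/- and 8.89 and 13.8 TPM in Pax5-/- libraries. Both Pax5-/- libraries lay far below the other 6, and Pax5R31Q/- overlapped with Pax5+/-. S1pr1 fell 3.43-fold in Pax5-/- (log2 -1.78, SE 0.19, limma adjusted p = 0.000399). In Pax5R31Q/- it was at 77.8% of the Pax5+/+ mean, which did not pass the test (log2 -0.35, interval -0.80 to 0.10, limma adjusted p = 0.364). The direct comparison placed Pax5R31Q/- above Pax5-/- cells (log2 1.43, SE 0.19, limma adjusted p = 0.00147), while Klf2 did not pass in this comparison. Its start site peak (115714768 to 115715136, 369 bp, in the first exon and upstream of it) was called in Pax5+/+ only. A second peak (115702054 to 115702451) lay 12803 bp downstream of the start, beyond the gene, and was common to both lists.

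S1pr3 rose in both Pax5R31Q/- and Pax5-/- cells. It couples to several G proteins and is better known from endothelial and smooth muscle cells. S1pr3 lies on chromosome 13 (51408618 to 51422797, plus strand) and had 0.433 and 0.701 TPM in Pax5+/+, 1.49 and 1.83 TPM in Pax5+/-, 8.21 and 6.75 TPM in Pax5R31Q/- and 7.78 and 7.51 TPM in Pax5-/- libraries. Behind these stood 27 and 39 reads in Pax5+/+, 91 and 111 in Pax5+/-, 513 and 412 in Pax5R31Q/- and 350 and 476 in Pax5-/-, so that the filter of 1 TPM was passed only outside Pax5+/+. The genotypes without wild-type Pax5 overlapped and lay above all Pax5+/- libraries, which lay above both Pax5+/+. The log2 fold change against Pax5+/+ was 2.44 in Pax5R31Q/- (SE 0.18, limma adjusted p = 0.000916) and 2.47 in Pax5-/- (SE 0.18, limma adjusted p = 7.3e-05). The pseudocount of 1 shrinks these values, and the means of 7.48 and 0.567 TPM stood at a larger ratio. Pax5R31Q/- also exceeded Pax5+/- (log2 1.67, SE 0.18, limma adjusted p = 0.0155), a call lost without any of those 4 libraries (limma adjusted p between 0.121 and 0.215) and without the filter (0.0528). Against Pax5-/- the difference was -0.03 (interval -0.46 to 0.40), and Pax5+/- against Pax5+/+ did not pass (log2 0.77, limma adjusted p = 0.332). A peak at its start (51408535 to 51409043, 509 bp) was called in Pax5R31Q/- only, and no Pax5+/+ peak lay within 10 kb. Of 8 endothelial markers 6 were tested, of which 0 passed in Pax5R31Q/- against Pax5+/+, where 2.55% of all genes were lower and 1.62% higher. Leaving out Esam, which reached 1 TPM in Pax5-/- only, 3 of 5 were higher and 2 lower in Pax5-/-, where 16.2% and 19.7% of all genes were called. The summed level of all 8 markers ranged from 269 to 286 TPM in Pax5+/+, 254 to 256 TPM in Pax5+/-, 288 to 299 TPM in Pax5R31Q/- and 596 to 696 TPM in Pax5-/-. Tek and Tie1 were under 1 TPM in both libraries of every genotype. Cdh5 was at 1.57 and 1.17 TPM in Pax5+/+ and 6.83 and 13.1 TPM in Pax5-/- (log2 2.15, limma adjusted p = 0.00104). Pecam1 and Egfl7 were also higher in Pax5-/-, and Kdr and Emcn were the 2 lower ones. The part of endothelial cells in the S1pr3 result was not tested. S1pr3 shares 71 exonic bp with Gm32834 on the other strand, and strand use in counting is not stated.

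S1pr4, which is found mainly in lymphoid and myeloid cells, was the most abundant of the 3 per length. It had 167 and 191 TPM in Pax5+/+, 137 and 135 TPM in Pax5+/-, 102 and 93.7 TPM in Pax5R31Q/- and 112 and 104 TPM in Pax5-/- libraries, and the 4 genotypes did not overlap. S1pr4 fell 1.82-fold in Pax5R31Q/- (log2 -0.87, SE 0.11, limma adjusted p = 0.00713) and 1.65-fold in Pax5-/- (log2 -0.72, SE 0.11, limma adjusted p = 0.00229). The first call was lost without either Pax5R31Q/- library (limma adjusted p = 0.0680 and 0.0956). Pax5+/- did not pass against Pax5+/+ (log2 -0.39, interval -0.65 to -0.13, limma adjusted p = 0.501). Of 4 Pax5+/+ peaks around S1pr4 (chromosome 10, 81497745 to 81500137, minus strand), 3 were common, among them the start site peak (81499544 to 81499867). The peak called in Pax5+/+ only (81497522 to 81497968) covered the 3′ end of the gene. Of the other common peaks, 1 had its midpoint in an exon of Ncln and 1 in an exon of Gna15, both neighbouring genes.

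**Figure D2:**
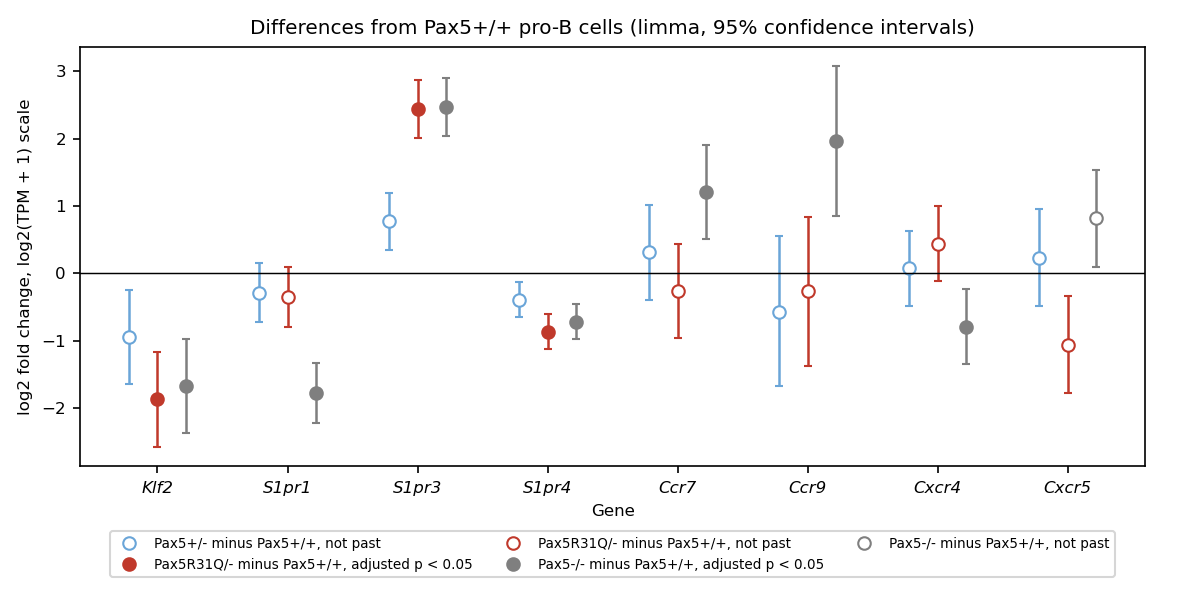
Difference in log2(TPM + 1) (y axis) of each gene (x axis) in Pax5+/-, Pax5R31Q/- and Pax5-/- against the same 2 Pax5+/+ libraries, with 95% confidence intervals. Filled points passed a limma adjusted p of 0.05; S1pr3 lies near 2.44 and 2.47 in Pax5R31Q/- and Pax5-/-, and S1pr1 passes in Pax5-/- alone.

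The chemokine receptors differed between Pax5R31Q/- and Pax5-/- cells. Cxcr4 was the most abundant member, with 636 and 404 TPM in Pax5+/+, 529 and 539.9 TPM in Pax5+/-, 789 and 599 TPM in Pax5R31Q/- and 332 and 255 TPM in Pax5-/- libraries. Both Pax5-/- libraries lay below all others, while the other genotypes lay close together or overlapped. Cxcr4 was lower in Pax5-/- than in Pax5R31Q/- (log2 of Pax5R31Q/- against Pax5-/- 1.24, SE 0.24, limma adjusted p = 0.00698) and Pax5+/+ cells (log2 -0.80, SE 0.24, limma adjusted p = 0.0347). The second call ended under 11 of 18 other settings, among them median-ratio scaling (log2 -0.71, limma adjusted p = 0.0699), and without any library but the second Pax5+/+ one. Without the first Pax5+/+ library the value was -0.47 (limma adjusted p = 0.169). The call between Pax5R31Q/- and Pax5-/- was lost without the first Pax5R31Q/- library (0.0689). Cxcr4 was also lower in Pax5-/- than in Pax5+/- (log2 of Pax5+/- against Pax5-/- 0.88, limma adjusted p = 0.027), which was lost without either Pax5+/- or the second Pax5-/- library (0.114 to 0.125) and with median-ratio scaling, quantile normalization or no filter (0.0575 to 0.0603). Against Pax5+/+, the Pax5R31Q/- value of 0.44 did not pass (interval -0.12 to 1.0, limma adjusted p = 0.362). Cxcr4 (chromosome 1, 128588199 to 128592299, minus strand) had 3 Pax5+/+ peaks, all common: at the start (128592247 to 128592844), in its intron (128590703 to 128591569) and 9244 bp upstream (128601364 to 128601722), the last being the peak with the core printed above.

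Ccr7 and Cxcr5, receptors of more mature lymphocytes, were highest in Pax5-/- libraries. Ccr7 (chromosome 11, 99144199 to 99155077, minus strand) had 37.9 and 18.4 TPM in Pax5+/+, 28.5 and 38.4 TPM in Pax5+/-, 21.6 and 22.2 TPM in Pax5R31Q/- and 60.7 and 64.2 TPM in Pax5-/- libraries. Only the Pax5-/- libraries stood clear of the rest. Ccr7 rose 2.31-fold in Pax5-/- (log2 1.21, SE 0.30, limma adjusted p = 0.0173), and Pax5R31Q/- was below Pax5-/- (log2 -1.47, limma adjusted p = 0.00877). The first call was lost without either Pax5-/- library (limma adjusted p = 0.0742 and 0.0672) and with only both genotypes in the fit (0.0819), and the second without either Pax5R31Q/- library (0.0682 and 0.0608). With each library left out in turn, the log2 value of Pax5-/- against Pax5+/+ ranged from 0.71 to 1.71. Against Pax5+/+, Pax5R31Q/- gave a log2 value of -0.26 (interval -0.96 to 0.44, limma adjusted p = 0.648).

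Cxcr5 (chromosome 9, 44511787 to 44526444, minus strand) had 14.2 and 31.5 TPM in Pax5+/+, 25.3 and 24.8 TPM in Pax5+/-, 9.53 and 9.80 TPM in Pax5R31Q/- and 40.9 and 35.8 TPM in Pax5-/- libraries. The Pax5R31Q/- libraries were the lowest of all and the Pax5-/- libraries the highest, and this difference was 3.69-fold (log2 -1.88, SE 0.31, limma adjusted p = 0.00344). Against Pax5+/+, whose libraries lay far apart, neither Pax5R31Q/- (log2 -1.06, interval -1.78 to -0.34, limma adjusted p = 0.119) nor Pax5-/- (log2 0.82, interval 0.10 to 1.54, limma adjusted p = 0.0742) passed. Without the first Pax5+/+ library the Pax5R31Q/- value was -1.61 (limma adjusted p = 0.0134), and without the second the Pax5-/- value was 1.37 (0.00271), while limma-voom on recovered reads gave 0.95 (0.0332). Against Pax5+/-, Pax5R31Q/- gave -1.29 (limma adjusted p = 0.173), and passed without either Pax5+/+ library (0.0421 and 0.0433). Of 8 markers of pre-B and later B cells tested, 4 were higher in the second than in the first Pax5+/+ library and 4 lower. Their list summed to 263 and 338 TPM in Pax5+/+, 275 and 241 TPM in Pax5+/-, 144 and 151 TPM in Pax5R31Q/- and 221 and 397 TPM in Pax5-/-. Of this, Cd74 held 131 and 209 TPM in Pax5+/+, 49.7 and 75.7 TPM in Pax5R31Q/- and 148 and 259 TPM in Pax5-/-. Against Pax5+/+, 2 of the 8 were lower and 0 higher in Pax5R31Q/-, where 2.55% and 1.62% of all genes were called. In Pax5-/-, 4 were lower and 1 higher (Il2ra), where 19.7% and 16.2% of all genes were called. Ms4a1 was at 14.04 and 25.8 TPM in Pax5+/+ and stood at 1.18 and 4.83 TPM in Pax5R31Q/- and 0.234 and 0.190 TPM in Pax5-/-. Bcl9l, which shares 120 exonic bp with Cxcr5 on the other strand, had 42.3 and 70.8 TPM in Pax5+/+, 44.9 and 43.8 TPM in Pax5R31Q/- and 112 and 113 TPM in Pax5-/-. The part of later B cells and of Bcl9l reads in the Cxcr5 values was not tested.

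Ccr9 was at or under 2.08 TPM outside Pax5-/- cells. It had 2.08 and 0.899 TPM in Pax5+/+, 0.503 and 0.773 TPM in Pax5+/-, 1.10 and 0.920 TPM in Pax5R31Q/- and 4.45 and 15.4 TPM in Pax5-/- libraries. The Pax5-/- libraries were both above all others and differed strongly from each other. Ccr9 rose 3.91-fold against Pax5+/+ (log2 1.97, SE 0.48, limma adjusted p = 0.0158), a call lost without the second Pax5+/+ library (log2 1.62, limma adjusted p = 0.109) and with only both genotypes in the fit (0.0872). The fold of 3.91 is on the scale of TPM + 1, and the means of 9.92 TPM in Pax5-/- and 1.49 TPM in Pax5+/+ stood at a larger ratio. Without the second Pax5-/- library the log2 value was 1.17. Pax5R31Q/- was below Pax5-/- (log2 -2.24, limma adjusted p = 0.0106), a call lost without either Pax5R31Q/- library (0.0679 and 0.0752) and with only both genotypes (0.0651). Pax5+/- was below it too (log2 -2.53, limma adjusted p = 0.006; with only both genotypes 0.0505). Ccr9 (chromosome 9, 123767211 to 123783457, plus strand) shares 165 of its 4392 exonic bp with Gm17021 on the other strand. It is also a receptor of plasmacytoid dendritic cells. Of 10 markers of these cells, 7 rose and 1 fell in Pax5-/- against Pax5+/+ cells (median log2 2.38). Of all genes, 16.2% were called higher and 19.7% lower there (median log2 -0.11). Siglech, a defining one, was at 11.7 and 3.37 TPM in Pax5+/+, 0.694 and 1.33 TPM in Pax5R31Q/- and 54.4 and 158.5 TPM in Pax5-/- libraries. Runx2 was at 36.5 and 73.2 TPM and Cox6a2 at 123 and 206 TPM in Pax5-/-, and none exceeded 12.8 TPM elsewhere. The summed level of all 10 markers, of which Spib made up the most in Pax5+/+, ranged from 737 to 746 TPM in Pax5+/+, 545 to 615 TPM in Pax5+/-, 317 to 360.5 TPM in Pax5R31Q/- and 689 to 1114.5 TPM in Pax5-/-. In bulk samples a change in the share of a cell type and a change in RNA per cell cannot be told apart, and the part of these cells in the Ccr9 result was not tested.

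**Figure D3:**
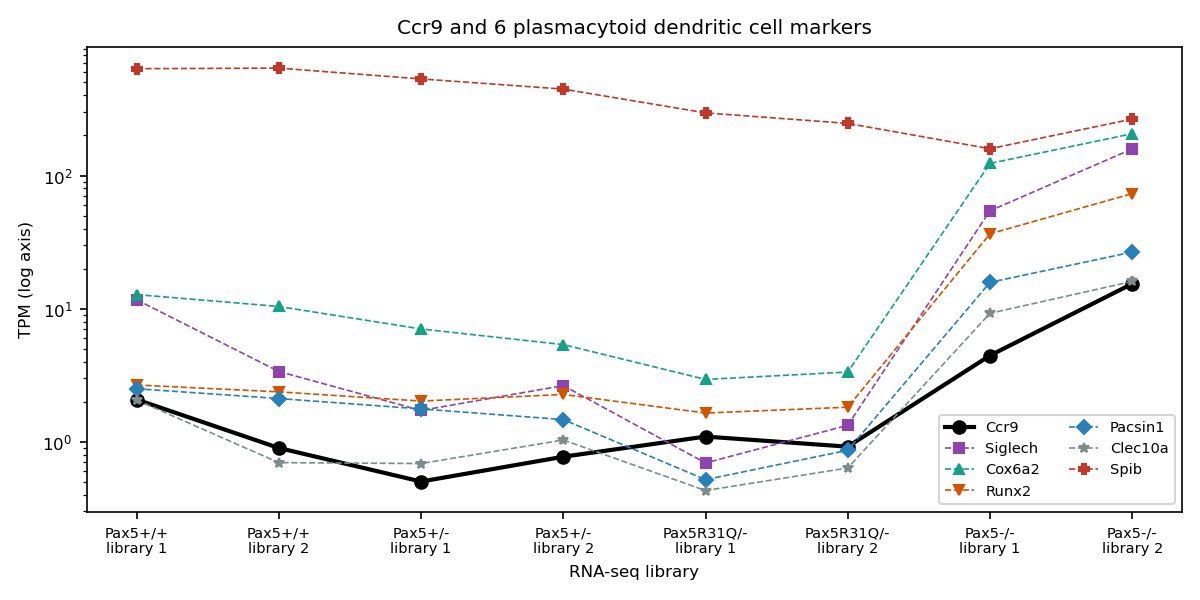
Levels of Ccr9 (black) and 6 markers of plasmacytoid dendritic cells (y axis, TPM, log scale) in the 8 RNA-seq libraries (x axis). Ccr9, Siglech, Cox6a2, Runx2, Pacsin1 and Clec10a are highest in the second Pax5-/- library and next in the first, while Spib is highest in Pax5+/+.

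Counted over the 8 genes, the comparison of Pax5R31Q/- with Pax5+/+ cells called 2 lower (Klf2 and S1pr4) and 1 higher (S1pr3). Of all genes tested, limma called 2.55% lower and 1.62% higher. The rule of the study's methods (adjusted p under 0.05, more than 3-fold, mean TPM over 5 in a genotype) called Klf2 lower and S1pr3 higher, against 0.558% of all genes lower and 0.275% higher. The median log2 difference of the 8 genes was -0.31, and that of all genes 0.04. In Pax5-/- cells 4 of the 8 were lower (Klf2, S1pr1, S1pr4 and Cxcr4) and 3 higher (S1pr3, Ccr7 and Ccr9), where limma called 19.7% and 16.2% of all genes. The study rule kept Klf2 and S1pr1 lower and S1pr3 and Ccr9 higher, where 3.44% and 2.86% of all genes were called. Both comparisons share the Pax5+/+ libraries.

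The other comparisons separated the genotypes further. Pax5+/- against Pax5+/+ called 0 of the 8, with 3 at an unadjusted p under 0.05 (Klf2, S1pr3 and S1pr4), and 0.0223% of all genes. At an unadjusted p under 0.05 stood 814 of all 13436 genes tested. Pax5R31Q/- against Pax5+/- called S1pr3 alone, and 0.618% of all genes. Pax5R31Q/- against Pax5-/- called 5 of the 8: S1pr1 and Cxcr4 were higher and Ccr7, Ccr9 and Cxcr5 lower in Pax5R31Q/-, where 34.6% of all genes were called in either direction. Pax5+/- against Pax5-/- called 4 of the 8, with S1pr1 and Cxcr4 higher and S1pr3 and Ccr9 lower in Pax5+/-, and 33.1% of all genes. In the order of mean levels, the neighbours that passed were Pax5R31Q/- above Pax5-/- for S1pr1, Pax5R31Q/- above Pax5+/- for S1pr3, Pax5-/- above Pax5+/+ for Ccr9 and Pax5+/+ above Pax5-/- for Cxcr4.

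Around the 8 genes, most Pax5 peaks were called in both genotypes. Of 15 Pax5+/+ peaks in the genes or within 10 kb, 13 met a Pax5R31Q/- peak by at least 1 bp, where 37.5% of all 41983 Pax5+/+ peaks did. The 2 exceptions were the S1pr1 start site peak and the peak at the 3′ end of S1pr4. Of 17 Pax5R31Q/- peaks, 13 met a Pax5+/+ peak, where 81.6% of all 18821 did. The 4 exceptions were the S1pr3 start site peak, a peak in the intron of Ccr7 (99147501 to 99148211), a peak 4155 bp upstream of Ccr9 (123762886 to 123763226) and a peak in the intron of Cxcr5 (44515374 to 44515827). Neighbouring peaks of 1 gene are not independent, and with 1 library per genotype there was no test. The shares over all peaks were not matched to these peaks for distance from genes or for width. Start site peaks (within 1 kb) were called in both genotypes for Klf2, S1pr4, Ccr7, Cxcr4 and Cxcr5. Of all tested genes with a Pax5+/+ start site peak, 4.03% had none that met a Pax5R31Q/- peak, as S1pr1 did. Of those with a Pax5R31Q/- start site peak, 10.4% had none that met a Pax5+/+ peak, as S1pr3 did. Common peaks were wider than others in the whole lists, with a median of 468 bp against 316 bp in Pax5+/+ and 599 bp against 418 bp in Pax5R31Q/-.

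**Figure D4:**
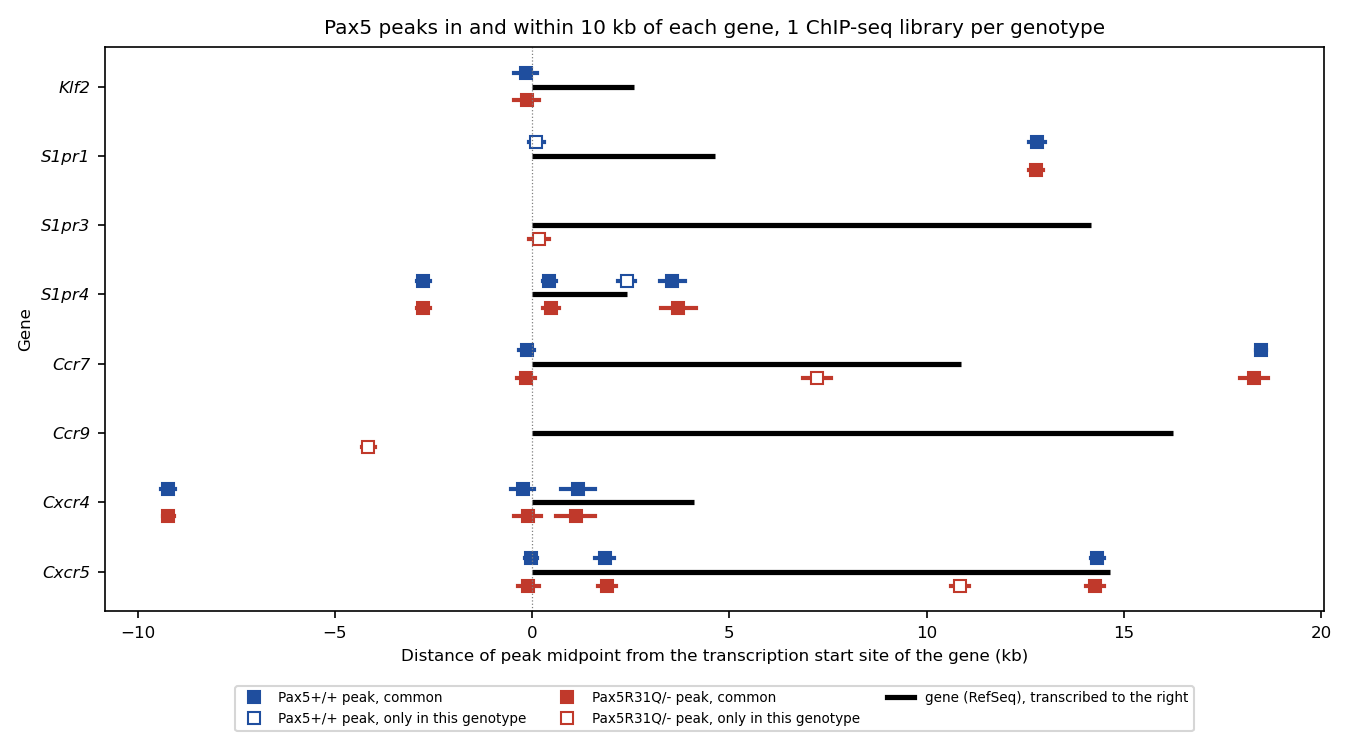
Pax5 peaks by distance of their midpoint from the start of each gene (x axis, kb, gene drawn as a black line to the right) for the 8 genes (y axis), with the Pax5+/+ list above and the Pax5R31Q/- list below each line. Lines give the peak width to scale, squares its midpoint, and open squares peaks called in 1 genotype only: 2 of 15 in Pax5+/+ and 4 of 17 in Pax5R31Q/-.

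RNA and start site peaks, set side by side, gave several combinations. S1pr1 had a start site peak in Pax5+/+ only, and its RNA in Pax5R31Q/- was at 77.8% of Pax5+/+, not past the test. Klf2 and S1pr4 had start site peaks in both lists and less RNA in Pax5R31Q/-. S1pr3 had a start site peak in Pax5R31Q/- only, and its RNA was higher than in Pax5+/+ there and in Pax5-/-, where Pax5 binding was not measured here. The cells of the ChIP-seq were cultured and those of the RNA-seq were not. The Pax5+/+ ChIP-seq cells were also Rag2-/-, a genotype that no other library's genotype entry gives. Effects of Rag2 and of Pax5 on the peak lists cannot be told apart.

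Among 10 other genes in the list of Klf2 regulators and targets, 0 passed in Pax5R31Q/- against Pax5+/+. In Pax5-/- cells 2 of the 10 were higher (Itgb7 and Il6ra) and 3 lower (Foxo1, Mapk7 and Mef2d). In that comparison 19.7% of all genes were lower and 16.2% higher, against 2.55% and 1.62% in Pax5R31Q/-, and the list's median log2 difference was -0.16 (all genes -0.11). Foxo1, which activates Klf2 in lymphocytes, was at 201 and 219.8 TPM in Pax5+/+, 209 and 200.4 TPM in Pax5R31Q/- and 62.1 and 89.2 TPM in Pax5-/- libraries. It fell in Pax5-/- (log2 -1.49, limma adjusted p = 0.000455), and its Pax5R31Q/- value was -0.04 (limma adjusted p = 0.921). Itgb7, an integrin chain for gut homing, had 3.25 and 2.08 TPM in Pax5+/+, 2.26 and 2.06 TPM in Pax5R31Q/- and 35.5 and 40.9 TPM in Pax5-/- libraries.

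In the sphingosine-1-phosphate list, 1 of 16 genes tested was lower (Plpp3) and 1 higher (Gna12) in Pax5R31Q/- (all genes 2.55% lower and 1.62% higher). In Pax5-/- 2 were lower and 3 higher (all genes 19.7% lower and 16.2% higher). The list's median log2 difference was -0.03 in Pax5R31Q/- (all genes 0.04) and -0.25 in Pax5-/- (all genes -0.11). Plpp3, a phosphatase that degrades extracellular lipid phosphates, had 15.0 and 15.9 TPM in Pax5+/+, 6.13 and 7.09 TPM in Pax5+/-, 2.82 and 2.42 TPM in Pax5R31Q/- and 0.221 and 0.179 TPM in Pax5-/- libraries. It fell in Pax5R31Q/- (log2 -2.19, SE 0.17, limma adjusted p = 0.000916) and Pax5-/- (log2 -3.78, limma adjusted p = 8.92e-06), with the 4 genotypes in separate ranges. Spns2, a sphingosine-1-phosphate exporter, was between 5.003 and 12.6 TPM in all but Pax5-/- libraries, where it was at 87.2 and 94.6 TPM (log2 3.67, limma adjusted p = 3.69e-05). Sgpl1, the lyase that degrades the lipid, did not pass in either comparison.

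Of 14 other chemokine receptors tested, 1 was lower (Cxcr3) and 1 higher (Cmklr1) in Pax5R31Q/-, where 2.55% and 1.62% of all genes were called. Of the 14, 5 reached the filter of 1 TPM in Pax5-/- libraries only (Ccr6, Ccr10, Cx3cr1, Ackr2 and Ackr4), so that their calls as higher there carry no weight. Of the other 9, 3 were higher in Pax5-/- (Cxcr3, Ccrl2 and Cmklr1) and 0 lower, where 16.2% and 19.7% of all genes were called. Cxcr3, a receptor of activated T cells and plasmacytoid dendritic cells, reached 14.4 and 15.6 TPM in Pax5-/- from 2.23 and 1.60 TPM in Pax5+/+ and 0.535 and 0.548 TPM in Pax5R31Q/-. Among 20 genes of receptor signalling and desensitisation, 1 was higher (Rgs10) and 1 lower (Rac2) in Pax5R31Q/-, beside 1.62% of all genes higher and 2.55% lower. Leaving out Rgs1, which reached 1 TPM in Pax5-/- libraries only, 5 of 19 were higher and 3 lower in Pax5-/-, beside 16.2% of all genes higher and 19.7% lower. The median log2 difference was -0.02 over the 20 genes in Pax5R31Q/- and 0.10 over the 19 in Pax5-/-. Rgs10, which shortens G protein signals, had 29.9 and 26.1 TPM in Pax5+/+, 69.6 and 55.1 TPM in Pax5+/-, 171 and 176 TPM in Pax5R31Q/- and 56.3 and 48.9 TPM in Pax5-/- libraries. It was highest in Pax5R31Q/- (log2 2.59 against Pax5+/+, SE 0.15, limma adjusted p = 0.000313) and overlapped between Pax5+/- and Pax5-/-.

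**Figure D5:**
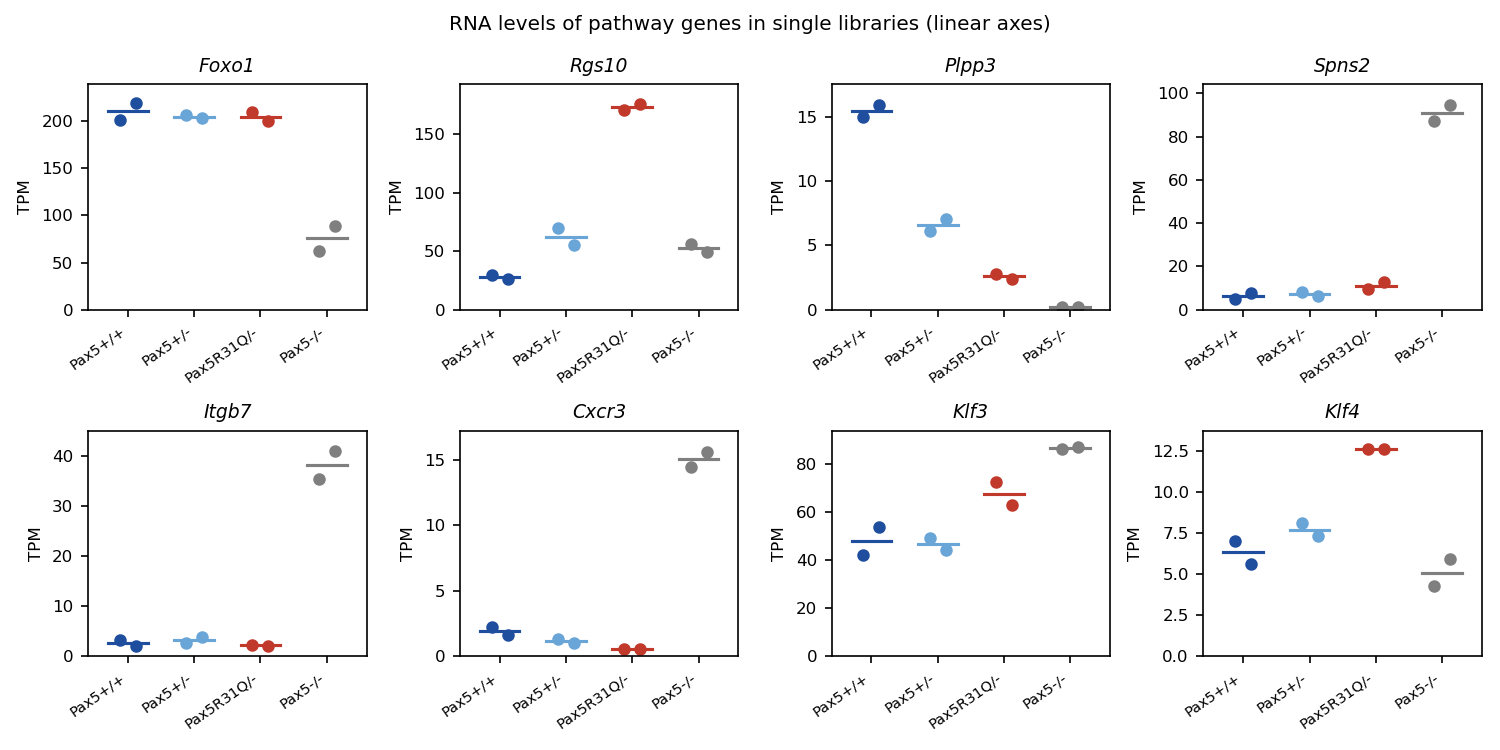
RNA levels (y axes, TPM, linear from 0) of 8 pathway genes in the 4 genotypes (x axes), with 1 point per library and a bar at the mean of 2 libraries. Rgs10 and Klf4 are highest in Pax5R31Q/-, Foxo1 is lowest in Pax5-/-, and Spns2, Itgb7 and Cxcr3 are high in Pax5-/- alone.

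Of 12 other Klf genes tested, 1 was higher (Klf4) and 0 lower in Pax5R31Q/-, beside 1.62% and 2.55% of all genes. In Pax5-/- 1 was higher (Klf3) and 3 lower (Klf6, Klf10 and Klf11), beside 16.2% and 19.7% of all genes. Their median log2 difference was -0.08 in Pax5R31Q/- and -0.25 in Pax5-/-. Klf4, a close relative of Klf2, had 7.03 and 5.64 TPM in Pax5+/+, 12.6 and 12.6 TPM in Pax5R31Q/- and 4.26 and 5.91 TPM in Pax5-/- libraries (log2 0.90 in Pax5R31Q/-, SE 0.19, limma adjusted p = 0.044). Klf3 had 42.3 and 53.7 TPM in Pax5+/+ and 86.6 and 87.3 TPM in Pax5-/- libraries (log2 0.85, limma adjusted p = 0.00354). Of the ligand genes only Ccl25 and Cxcl12 were tested, and neither passed in these comparisons. Ccl25 lay between 4.81 and 8.28 TPM in the 8 libraries.

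The genes most like each member over the 8 libraries, by Pearson's correlation of log2(TPM + 1) among 10615 other genes with a mean TPM over 5 in a genotype, share libraries, depth and genotype with it and are given as a description. For Klf2 these included Heatr6 and Mtor (both r = 0.977), and Mtor ranged from 59.1 TPM in Pax5+/+ to 32.8 TPM in Pax5-/-. For S1pr1 they were 1700048O20Rik, Tifa and Inafm2 (each 0.996), with Tifa at 746 and 710.1 TPM in Pax5+/+ and 144 and 238 TPM in Pax5-/-. For S1pr3 they were Epb41l4b (0.991), Cd244a (0.980) and Rilpl2 (0.978). Chst12 (0.995), Elmod3 (0.991) and Csrnp1 (0.989) were nearest to S1pr4. Havcr1 (0.989), Ctsb (0.984) and Crem (0.983) were nearest to Ccr9, and Havcr1 was at 2.61 and 13.4 TPM in the Pax5-/- libraries. Mrps18a (0.961), Rpl22l1 (0.957) and Aldh9a1 (0.953) were nearest to Ccr7, Zscan21 (0.974), Acp5 (0.965) and Prg3 (0.956) to Cxcr4, and Tapbpl (0.982), Bin2 (0.974) and Hsd3b7 (0.966) to Cxcr5.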

How the data were processed

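RNA-seq values of 8 libraries and Pax5 peaks of 2 ChIP-seq libraries were taken as deposited. The authors removed ribosomal reads with Bowtie 2, aligned to GRCm38/mm10 with STAR, counted reads on RefSeq genes and deposited TPM. ChIP-seq reads were aligned with Bowtie 2 and peaks called by MACS (the submitters' processing notes name Bowtie 2 2.3.5.1 and STAR 2.4.2), and the deposited score is 0 throughout. The steps between low TPM values gave back whole reads for 18206 of 18206 genes above 0 in at least 2 libraries (100% within 1e-06).

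The test was limma (version 3.58.1, run under R 4.3.3), applied to log2(TPM + 1) of 13436 genes with at least 1 TPM in a library, with all 4 genotypes in the fit, a trend of variance on the mean and Benjamini-Hochberg adjustment over all genes. The authors used DESeq2, whose counts were not used here. Tests were checked on simulated data. A peak belonged to a gene in or within 10 kb of it. Peaks were common if they overlapped by 1 bp. Sequences were read from GRCm38.p6 with pysam. Members, gene lists and alternatives were chosen with earlier results of these data known. Besides the members, named genes are those of 6 pathway lists called by the study's rule against Pax5+/+ (or the 2 that differed most in Pax5R31Q/-), and the 3 most correlated with each member; other list genes and markers were named after their values were seen. Immunoglobulin genes, 419 in all, were left out of the study's rule. Libraries were numbered in the order deposited, which pairs nothing. The labels' description names the mutated gene of the Pax5R31Q/- ChIP-seq library as Rag2, and its genotype entry, Pax5, was followed. Peak heights were not analysed here. Some items that these rules select, among them 1 gene of the list of Klf2 regulators and targets, are not reported here.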

Additional observations from a re-analysis of the deposited data

How the results depend on the processing

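Each of the 20 calls on the members kept its direction under all 18 alternatives (other pseudocounts, filters, scalings, variance models, a fit on both genotypes alone, limma-voom on recovered reads, and each library left out). The 200 values from settings other than leaving out a library kept 187 calls, and the 160 values from leaving out a library kept 132. The number of members past the threshold moved by over 1.5 times in a few cases. With only both genotypes in the fit it was 4 of 8 for Pax5-/- against Pax5+/+ and 2 for Pax5R31Q/- against Pax5+/-, and without the filter on low TPM it was 0 for the latter. Leaving out a library gave between 1 and 3 members for Pax5R31Q/- against Pax5+/+, 5 and 7 for Pax5-/- against Pax5+/+, 0 and 2 for Pax5R31Q/- against Pax5+/-, 2 and 5 for Pax5R31Q/- against Pax5-/-, and 3 and 7 for Pax5+/- against Pax5-/-. A fold threshold of 2 in the study's rule gave 5 members for Pax5R31Q/- against Pax5-/-. Signs turned, among values not past the threshold, when a library was left out: Ccr7 ranged from -0.76 to 0.24 and Ccr9 from -0.62 to 0.08 on the log2 scale in Pax5R31Q/- against Pax5+/+, Ccr7 from -0.19 to 0.81, Cxcr4 from -0.25 to 0.40 and Cxcr5 from -0.32 to 0.77 in Pax5+/- against Pax5+/+, S1pr1 from -0.14 to 0.01 in Pax5R31Q/- against Pax5+/-, and Klf2 from -0.54 to 0.15 and S1pr3 from -0.16 to 0.09 in Pax5R31Q/- against Pax5-/-. The cause was not tested. Uncalled member values passed newly in 8 of 280 values from other settings and 11 of 224 from leaving out a library, among them Ccr7 in Pax5+/- against Pax5-/- (limma adjusted p = 0.0545, and 0.0102 to 0.0469 where it passed). Peaks within 50 kb numbered 28 common and 13 unique in Pax5+/+ and 8 unique in Pax5R31Q/-. No paired analysis was possible because the labels carry no replicate numbers. In Pax5+/+ libraries S1pr3 rested on 27 and 39 reads and Ccr9 on 127 and 49, the lowest read numbers of the members there. S1pr3 kept its calls against Pax5+/+ in Pax5R31Q/- and Pax5-/- under all alternatives.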
